A study of Mus musculus with 12 samples.

Results

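The genes described here are 9 transcripts of mature oligodendrocytes, the cells that wrap central axons in myelin: Mbp, Mobp, Mog, Mag, Cnp, Cldn11, Hapln2, Opalin and Aspa. They were taken by symbol from a table of 24421 genes, and all 9 were present there and had enough counts to be among the 15148 genes tested. Their RNA was counted by sequencing in 12 libraries, each made from the striatum of both hemispheres of male C57BL/6J mice. Of these, 6 came from mice given 2 mg/kg varenicline, a partial agonist of nicotinic acetylcholine receptors used for smoking cessation, and 6 from mice given saline. Every mouse drank 20% ethanol for 2 h, starting 3 h into the dark phase, in 3 cycles of 2 days called Drinking-in-the-Dark. In the first cycle all received saline, and in the other 2 cycles the assigned injection preceded the second day's session by 30 min. The striatum was taken after the last session, so both groups had drunk ethanol, and mice without ethanol were not analysed here. Groups had been balanced for intake before treatment. The labels do not say whether each library is 1 mouse, so p-values measure the spread between these libraries. The comparison asked whether striatal myelin transcripts differed between varenicline and saline in drinking mice.

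Myelin is a stack of oligodendrocyte membrane whose cytoplasmic faces are held together by basic proteins and whose edges form loops against the axon. Its genes are switched on together late in oligodendrocyte differentiation, under transcription factors that include SOX10 and MYRF. In the striatum most myelin lies in the fibre bundles of the internal capsule that cross the tissue and in the white matter around it. Mbp and Mobp encode basic proteins of compact myelin. Mag, Mog, Cldn11 and Opalin encode membrane proteins, Cnp and Aspa encode enzymes, and Hapln2 encodes a matrix link protein of the node of Ranvier.

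The 250 bases before the start site were read for 8 of the 9 genes from RefSeq (GRCm38.p6). The letters searched on both strands were ACAAAG and ACAATG for SOX-type sites, CTGGCAC and CTGGTAC for MYRF-type sites, and TATAAA. The 8 genes had 10 windows, because Mag has several, which in part overlap. Of all 32851 such windows, 25.2% held at least 1 of the SOX-type words, and so did 6 of the 10. Those windows belonged to 5 genes, Cnp, Hapln2, Mag, Mobp and Opalin. The word CTGGCAC stood in 4.19% of all windows and in 4 of the 10, which belonged to Cnp, Hapln2 and Mag. For the SOX-type words and for CTGGCAC, overlapping Mag windows held the same site, so that site was counted more than once. CTGGTAC stood in 1.83% of all windows and in that of Mog, and TATAAA in 12.4% and in that of Aspa. The 3 windows below are shown because Cldn11 was among the genes with the smallest p, Mog followed the other members closely across libraries, and Opalin did not follow them. They are written 5′ to 3′ along the gene, with matches in capitals. Cldn11 lies on the plus strand (chr3:31149670-31149919), and Mog (chr17:37023399-37023648) and Opalin (chr19:41077114-41077363) on the minus strand.
Cldn11: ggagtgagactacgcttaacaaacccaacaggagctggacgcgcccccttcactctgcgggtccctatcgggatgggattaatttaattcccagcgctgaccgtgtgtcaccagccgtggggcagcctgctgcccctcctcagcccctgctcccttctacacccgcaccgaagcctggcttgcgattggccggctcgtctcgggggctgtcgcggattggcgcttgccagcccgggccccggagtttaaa
Mog: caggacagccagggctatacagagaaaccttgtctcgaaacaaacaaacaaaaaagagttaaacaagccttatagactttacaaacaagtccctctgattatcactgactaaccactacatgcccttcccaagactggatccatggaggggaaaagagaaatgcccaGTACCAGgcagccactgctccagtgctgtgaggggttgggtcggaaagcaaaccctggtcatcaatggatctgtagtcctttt
Opalin: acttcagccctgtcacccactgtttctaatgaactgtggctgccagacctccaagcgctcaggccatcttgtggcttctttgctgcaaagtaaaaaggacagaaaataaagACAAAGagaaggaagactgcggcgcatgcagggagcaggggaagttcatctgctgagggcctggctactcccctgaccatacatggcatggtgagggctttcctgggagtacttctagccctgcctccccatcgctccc
The Mog window held 1 match, CTGGTAC read on the opposite strand at position -83 from the start, and the Opalin window 1, ACAAAG at position -139. None of these words stood in the Cldn11 window, which says only that those letters are not in these 250 bases.

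Library totals averaged 19584990 ± 4307321 counts with varenicline and 23324001 ± 5011872 counts with saline (SD, n = 6 each; two-sided exact permutation p = 0.19 over 924 assignments). Markers of striatal projection neurons were plentiful, with the 14 genes summing to between 8670 and 13900 CPM, counts scaled to library size, in varenicline libraries and between 8030 and 12600 CPM in saline libraries. A pair of libraries stood apart in the myelin genes. Varenicline 6 had the lowest value of its group for 7 of the 9 genes, and saline 6 had the highest of its group for 7 of them. The fits of the 9 genes, the medians of their pair correlations and most list medians are therefore also given without them. Since these 2 libraries were picked out by the genes described, leaving them out widens the difference by construction and is no independent support. Numbers of libraries follow the order of deposition.

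Mbp stood far above the other myelin genes in abundance. Values per length are the deposited FPKM, fragments scaled to transcript length and library size. Mbp (chromosome 18, 82475123 to 82585637 on mm10) had the highest mean of all 24346 genes in that table, 3330 ± 229 FPKM with varenicline and 3160 ± 390 FPKM with saline (SD, n = 6 each). Cnp had 310 ± 26.3 FPKM with varenicline and 284 ± 18.3 FPKM with saline, and Mobp had 305 ± 28.1 FPKM with varenicline and 268 ± 46.8 FPKM with saline. Mag, Cldn11 and Mog followed, with means over the 12 libraries of 189, 166 and 102 FPKM, and then Opalin, Aspa and Hapln2 with 49.9, 26.6 and 23.8 FPKM. Mbp was above Cnp, Mobp above Mag, Cldn11 above Mog, Mog above Opalin and Opalin above Aspa in each of the 12 libraries. Cnp was above Mobp in 10 of the 12 libraries, Mag above Cldn11 in 11 and Aspa above Hapln2 in 10. The order within these 3 pairs thus held in most libraries but not in all. The lowest count of any member in a library was 349, for Opalin, where counting alone gives an error of 5.4%.

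**Figure D1:**
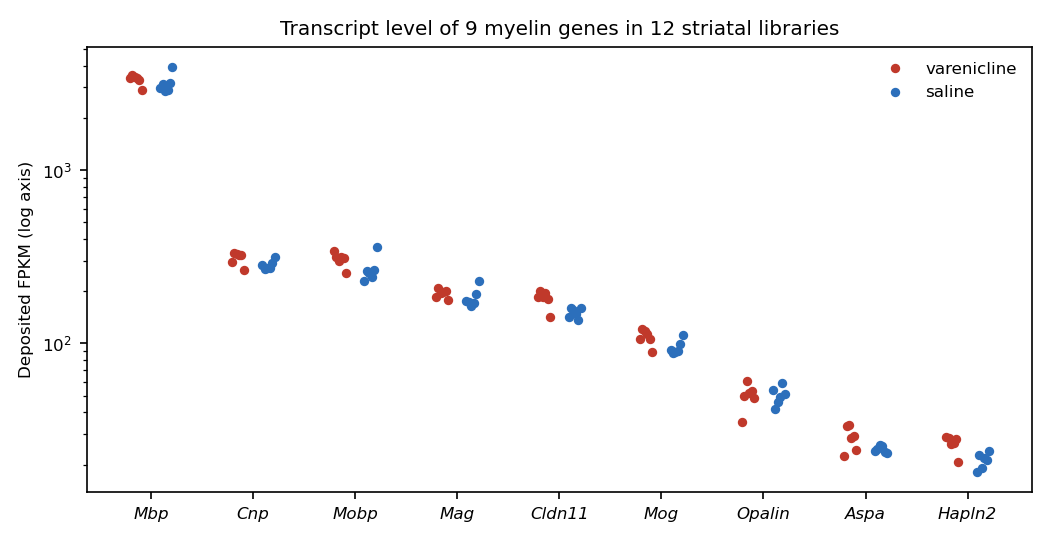
Deposited FPKM on a log axis for the 9 genes in order of mean level, with 1 point per library, varenicline on the left of each pair and saline on the right. Mbp lies highest at a mean of 3250 FPKM over the 12 libraries, and Hapln2 has the lowest mean of the 9, at 23.8 FPKM.

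As a set the myelin genes had slightly higher means in varenicline libraries, and none passed the test over all genes. Fold changes were highest for Hapln2, Cldn11, Aspa and Mog, between 1.14-fold and 1.25-fold, and were near 1 for Mbp, Mag and Opalin. In edgeR's quasi-likelihood test with Benjamini-Hochberg adjustment over 15148 genes, 0 of the 9 passed an adjusted p of 0.05, as did 0 genes in all (0%). Of the 9, 8 had a higher mean with varenicline, against 52.3% of all genes tested. Their median log2 fold change was 0.17, against 0.01 over all genes. With an unadjusted p under 0.05, 4 of the 9 were higher, as were 7.26% of all genes, and 0 were lower, where 9.63% of all genes were. DESeq2 called Cldn11 and Hapln2, both higher, where it called 1.14% of genes higher, and limma-voom with a weight per library called 6 of the 9, where it called 4.82% of genes higher. That fit gave its lowest weights to saline 6 and varenicline 6, 0.341 and 0.411. In bulk tissue, a difference in the number of oligodendrocytes and one in the RNA per oligodendrocyte cannot be told apart.

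Among the basic proteins of compact myelin, Mbp encodes the protein that zips the cytoplasmic membrane faces together. It had 5214 CPM in the lowest, 6133 CPM in the median and 6390 CPM in the highest varenicline library, and 5191, 5542 and 7163 CPM in the saline libraries. The groups overlapped: all varenicline libraries but number 6 were above the saline mean, and saline 6 was the highest of all 12. For Mbp the fitted log2 difference, varenicline over saline, was 0.07 (SE 0.08, edgeR adjusted p = 0.688). The counts of Mbp pool its classic myelin transcripts with the longer Golli transcripts of the same locus, which are also made outside oligodendrocytes. Mobp (chromosome 9, 120149742 to 120176091), whose product lies in the dense line between membrane faces, ran from 709.6 over a median of 866 to 945 CPM with varenicline and from 655 over a median of 725.5 to 1009 CPM with saline. Without saline 6 its saline libraries reached no higher than 757 CPM, and 5 of the 6 varenicline libraries were above that. On the log2 scale it differed by 0.17 (SE 0.10) at an edgeR adjusted p of 0.377.

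The genes of surface and junction proteins differed in the size of their fold changes. Cldn11 (chromosome 3, 31149920 to 31164326) encodes the claudin whose tight junction strands seal the myelin layers, and had the second smallest p of the 9. Its lowest, median and highest values were 233, 305 and 337 CPM with varenicline, and 230.3, 253 and 269.9 CPM with saline. All but varenicline 6 of the treated libraries lay above the highest saline library. For Cldn11 the fitted log2 difference, varenicline over saline, was 0.26 (SE 0.08, edgeR adjusted p = 0.147). Mog (chromosome 17, 37010740 to 37023398), an immunoglobulin-like protein of the outermost myelin surface, had 137, 169 and 189.9 CPM with varenicline and 136, 142 and 173 CPM with saline. Of its varenicline libraries 3 were above all saline libraries. For Mog the fitted log2 difference, varenicline over saline, was 0.19 (SE 0.08, edgeR adjusted p = 0.234).

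Mag (chromosome 7, 30899183 to 30914832) encodes an adhesion molecule of the innermost membrane that faces the axon. It had 416, 465 and 494.5 CPM with varenicline and 393, 414 and 552 CPM with saline, and saline 6 was the highest of all. On the log2 scale it differed by 0.06 (SE 0.08) at an edgeR adjusted p of 0.717. Opalin (chromosome 19, 41063420 to 41077113), a small membrane glycoprotein of central myelin, had 25.8, 37.9 and 44.8 CPM with varenicline and 31.55, 37.4 and 43.0 CPM with saline. It was the single member with a lower mean in varenicline libraries, at a log2 fold change of -0.01 (SE 0.11, edgeR adjusted p = 0.962). That value lay near 0 and its sign turned under several alternatives, reaching 0.07 without varenicline 1, the lowest library for this gene, and 0.01 when counts were scaled by library totals alone.

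Of the enzyme genes, Cnp (chromosome 11, 100574939 to 100581739) encodes the 2′,3′-cyclic nucleotide phosphodiesterase that keeps cytoplasmic channels open in myelin. It had 594.5, 728 and 766 CPM with varenicline and 605, 633 and 722 CPM with saline, and 4 varenicline libraries were above every saline library. On the log2 scale it differed by 0.12 (SE 0.06) at an edgeR adjusted p of 0.357. Aspa (chromosome 11, 73304988 to 73324637) encodes aspartoacylase, which splits N-acetylaspartate and frees acetate for lipid synthesis. It had 32.8, 41.5 and 48.75 CPM with varenicline and 32.4, 34.4 and 37.4 CPM with saline. The 4 varenicline libraries numbered 2 to 5 were above all saline libraries, whereas varenicline 1 and 6 lay inside the saline range. For Aspa the fitted log2 difference, varenicline over saline, was 0.23 (SE 0.09, edgeR adjusted p = 0.213). Saline 6, the highest saline library for most members, was the lowest for Aspa.

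Hapln2 (chromosome 3, 88021750 to 88027511) encodes Bral1, a link protein that fixes hyaluronan matrix at nodes of Ranvier, and had the largest fold change and the smallest p of the 9. Its lowest, median and highest values were 50.15, 65.7 and 71.5 CPM with varenicline and 44.25, 51.05 and 60.01 CPM with saline. All but varenicline 6 of the treated libraries were above the highest saline library, as for Cldn11. The means were 63.9 ± 7.44 CPM with varenicline and 51.2 ± 5.55 CPM with saline (SD, n = 6 each), a log2 fold change of 0.32 (SE 0.09, edgeR adjusted p = 0.138). With all 12 libraries, 0 of the 9 genes had groups that did not overlap, where 0.429% of all genes did in the higher direction.

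**Figure D2:**
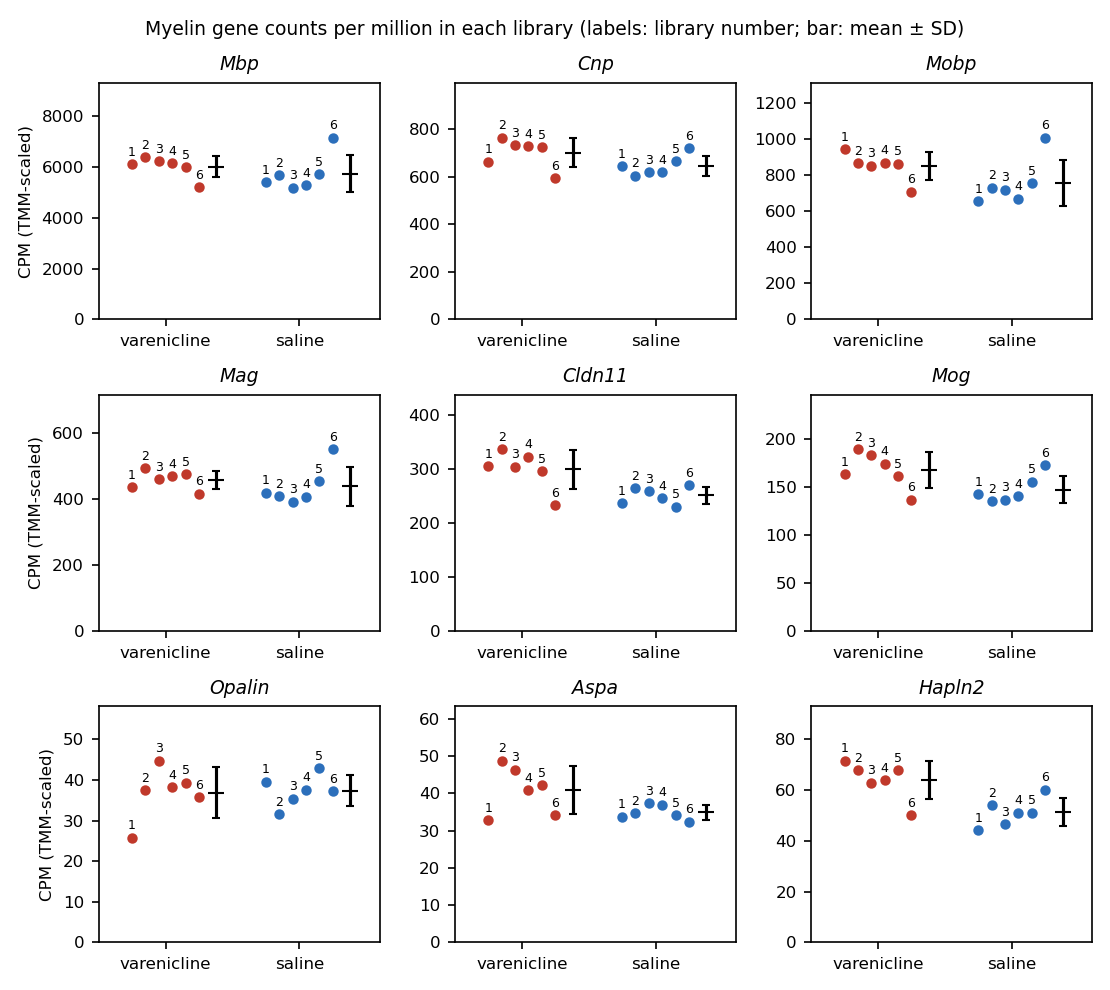
CPM after scaling by TMM in each library for the 9 genes, varenicline left and saline right, with the library number above each point and the mean ± SD beside each group. Varenicline 6 is low for most genes, and saline 6 reaches 7163 CPM for Mbp, the highest of all 12 libraries.

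The calls depended on varenicline 6. Without it the groups no longer overlapped for Cldn11 and Hapln2, as for 2.09% of all genes in the higher direction. In that set of 11 libraries edgeR called 4 of the 9 genes, all higher, where it called 3.55% of all genes higher. They were Cldn11 (log2 fold change 0.33, SE 0.05, edgeR adjusted p = 0.00152), Hapln2 (0.39, SE 0.07, adjusted p = 0.00238), Mog (0.26, SE 0.07, adjusted p = 0.0216) and Aspa (0.29, SE 0.09, adjusted p = 0.0424). Cnp just missed at 0.17 (SE 0.05, edgeR adjusted p = 0.0507), and Mobp had 0.23 (SE 0.09, adjusted p = 0.11). DESeq2 on the same 11 libraries called 5 of the 9, where it called 5.04% of all genes higher. Without saline 6 edgeR called 0 of the 9 genes and 0 genes in all (0%), but 8 of the 9 had an unadjusted p under 0.05, where 7.54% of all genes did in that direction, and the exception was Opalin. Mbp and Mag then each had a log2 fold change of 0.14. Without both libraries edgeR called 7 of the 9 genes, where it called 4.2% of all genes higher. The exceptions were Aspa (log2 fold change 0.27, SE 0.09, edgeR adjusted p = 0.0621) and Opalin (0.01, SE 0.12, adjusted p = 0.984).

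Markers of cortical excitatory neurons differed in the opposite direction. All 14 of them had lower means with varenicline, with a median log2 fold change of -0.93, and none was at 0 counts in the table. At an unadjusted p under 0.05, 12 of the 14 were lower, where 9.63% of all genes were. Their summed level ran from 401 to 1460 CPM in varenicline libraries and from 970 to 1740 CPM in saline libraries. Varenicline 6 had the highest sum of its group. The mean log2 CPM of these markers was 4.21 ± 0.858 with varenicline and 5.35 ± 0.338 with saline (SD, n = 6 each), and it was 5.59 in varenicline 6. With this cortical score as a covariate edgeR called 0 of the 9 genes, where it called 0.0594% of all genes, and 0 of the 9 reached an unadjusted p under 0.05, where 2.94% of all genes were higher and 1.95% lower. In that fit 5 of the 9 were higher and 4 lower, and the median log2 fold change was 0.03. Hapln2 had 0.16 (SE 0.11, edgeR adjusted p = 0.998), Cldn11 0.11 (SE 0.09), Mbp -0.05 (SE 0.09) and Opalin -0.16 (SE 0.14). With that covariate and without varenicline 6, Cldn11 and Hapln2 had 0.35 and 0.36 (SE 0.10 and 0.13, edgeR adjusted p = 0.446 for both), Opalin had -0.35 (SE 0.20, adjusted p = 0.538), Mbp 0.04, Mag -0.01, and the median of the 9 was 0.13. The score itself differed between the groups, so the share of the myelin difference that goes with it and the share that goes with treatment cannot be told apart.

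**Figure D3:**
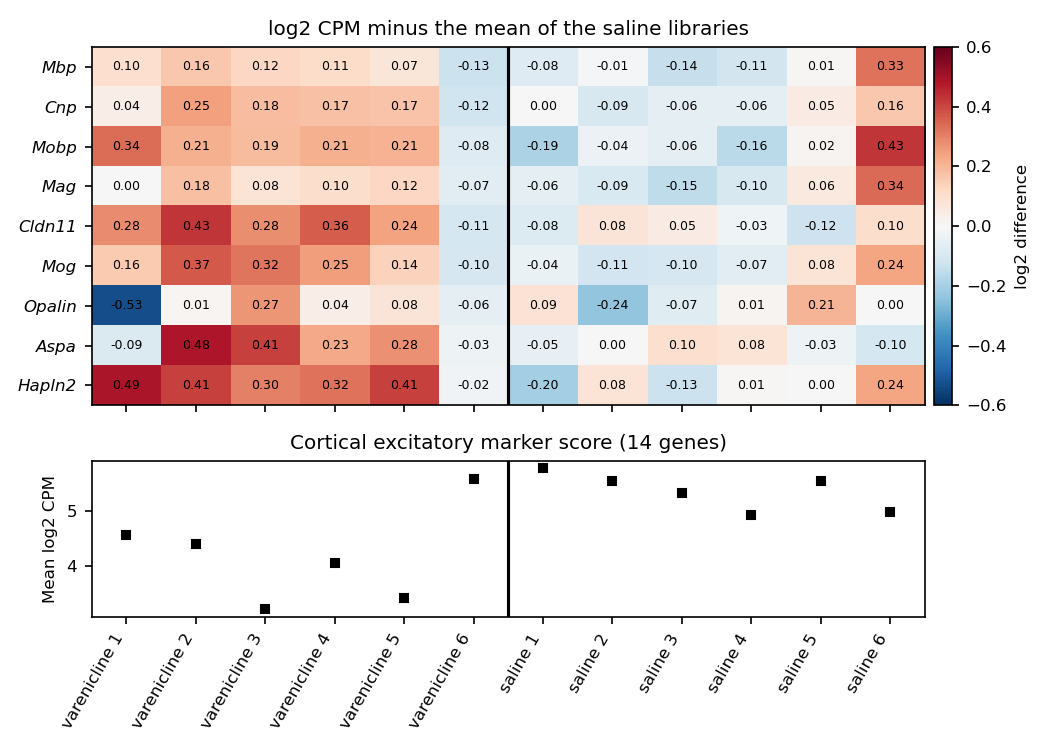
Upper panel: log2 CPM of each gene minus its mean in saline libraries, with varenicline libraries left of the line and saline libraries right of it. Lower panel: mean log2 CPM of 14 cortical excitatory markers in the same libraries, where varenicline 6, at 5.59, lies among the saline libraries and the other 5 varenicline libraries lie below them.

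**Figure D4:**
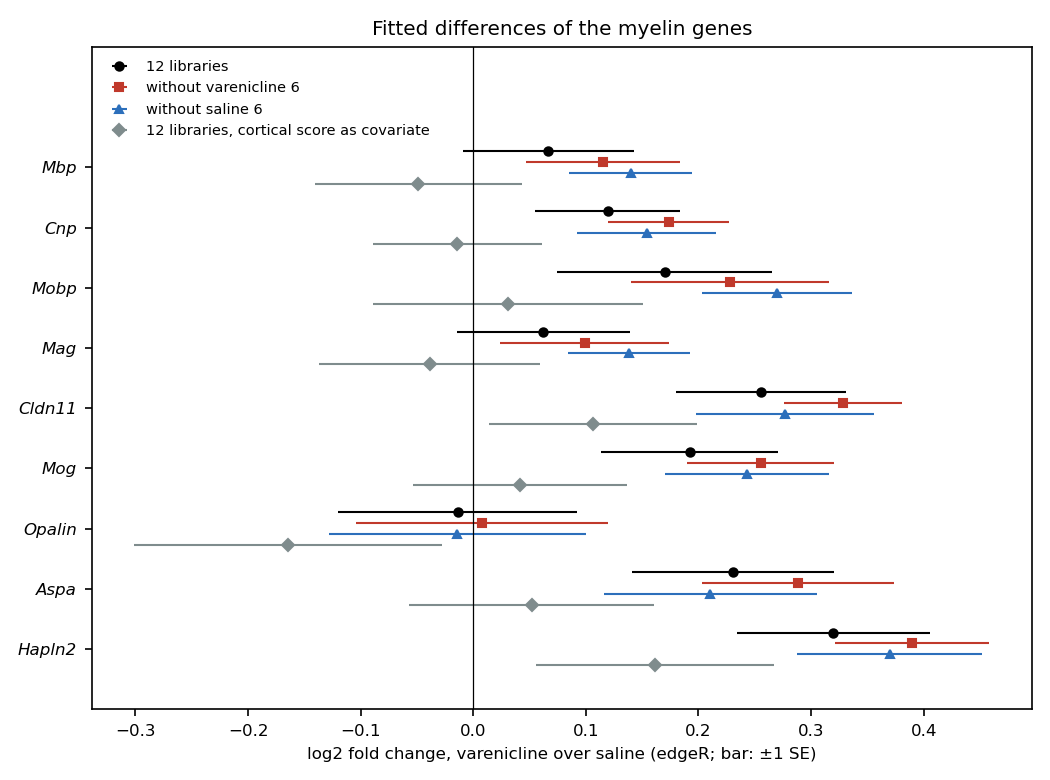
Log2 fold change, varenicline over saline, of the 9 genes in 4 edgeR fits, with bars of 1 SE. Values without varenicline 6 or without saline 6 lie right of those in all libraries for most genes, and values with the cortical score as a covariate lie left of them.

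Most members varied together across the 12 libraries, Opalin and Aspa least. Over the 36 pairs of members, Pearson's r of log2 CPM had a median of 0.70. The pairs without Opalin had a median of 0.76 and a lowest value of 0.21, whereas the pairs with Opalin ran from -0.24 to 0.44. With the group means subtracted the medians were 0.67 without Opalin and 0.18 with it, and the lowest value without Opalin was -0.081, between Mobp and Aspa. Without varenicline 6 and saline 6 the medians were 0.80 for pairs without Opalin and 0.12 for pairs with it. These values describe the same 12 libraries, which share depth, scaling and dissection for every gene. Against the mean of the other 8 members, Cnp and Mog followed most closely (r = 0.97 and 0.96 over 12 libraries), and Aspa (0.55) and Opalin (0.12) least.

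Mbp made up between 69.2% and 70.2% of the members' counts in varenicline libraries and between 69.8% and 71.5% in saline libraries. The 9 genes together took 0.869% ± 0.064 of all counts with varenicline and 0.805% ± 0.0891 with saline (SD, n = 6 each). Relative to the mean log2 CPM of the other 8 members, Hapln2 was 0.19 higher and Cldn11 0.11 higher with varenicline, and Opalin was 0.21 lower, Mag 0.09 lower and Mbp 0.09 lower. For each of the 9 genes the libraries of the groups overlapped in this measure, and no test was made of it.

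The genes whose pattern over the 12 libraries was most like the mean of the members were Efcab14 (r = 0.95), Tmem63a (0.94), Fa2h (0.93), Phgdh (0.93), Plekhh1 (0.92), Sox2ot (0.91), Enpp6 (0.91), Trf (0.90), Mal (0.899) and Lamp1 (0.896). They were ranked by Pearson's r of log2 CPM among all genes tested, so no p is given, and their Spearman values ran from 0.78 for Mal to 0.92 for Enpp6. Without varenicline 6 and saline 6 Pearson's r ran from 0.878 for Lamp1 to 0.967 for Fa2h. Fa2h encodes the fatty acid hydroxylase of myelin galactolipids, Trf transferrin, Mal a lipid raft protein of myelin, Enpp6 a choline phosphodiesterase made by newly formed oligodendrocytes, and Phgdh the first enzyme of serine synthesis. With the group means subtracted, 6 of these 10 stayed among the first 10, and when 1 library was left out between 3 (without varenicline 2) and 8 did. Plekhh1 had a log2 fold change of 0.20 (SE 0.06, edgeR adjusted p = 0.157), and the other 9 had values between 0.03 and 0.22, none past the threshold.

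Other genes of the oligodendrocyte lineage were higher more often than lower. Over 7 lists holding 88 genes other than the members, 62 had higher and 26 lower means with varenicline, 70.5% higher against 52.3% of all genes. The lists were chosen with earlier results of these data known, so a share above that of all genes is no independent support. EdgeR called 0 of the 88 (0% of all genes). With an unadjusted p under 0.05, 17 were higher (19.3%, against 7.26% of all genes) and 6 were lower, where 9.63% of all genes were. DESeq2 called 3 among those to which it gave an adjusted p, Tspan2 higher and Tnr and Tmem163 lower, where it called 3.19% of all genes in either direction. Without varenicline 6 edgeR called 19 of the 88, where it called 10.7% of all genes, and without varenicline 6 and saline 6 it called 28, where it called 12.2%.

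Of the 13 other myelin membrane proteins 11 were higher, 6 of them at an unadjusted p under 0.05 (46.2%, against 7.26% of all genes), and the median log2 fold change was 0.13. Tspan2, a tetraspanin of myelin, had a log2 fold change of 0.27 (SE 0.08, edgeR adjusted p = 0.147), Mal 0.22 (SE 0.08) and Tmem88b 0.13 (SE 0.05). Without varenicline 6 edgeR called 6 of the 13 higher, where it called 3.55% of all genes higher, among them Tspan2 at 0.34 (adjusted p = 0.00166).

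Genes of myelin lipid synthesis and transport, 14 with Aspa, were 9 higher and 5 lower. Elovl7, an elongase of long-chain fatty acids, differed by 0.25 on the log2 scale (SE 0.11) and Plin3, a coat protein of lipid droplets, by 0.22 (SE 0.09), with edgeR adjusted p values of 0.256 and 0.248. In the list of axoglial and gap junction genes, 9 of 13 were higher, Hapln2 among them. Cdh19, a cadherin of oligodendrocytes, had 0.39 (SE 0.12, edgeR adjusted p = 0.157) and Gjc3, a connexin, 0.20 (SE 0.08, adjusted p = 0.237). Tnr, tenascin-R of perineuronal and nodal matrix, had -0.19 (SE 0.05, edgeR adjusted p = 0.138). Of 16 genes of oligodendrocyte metabolism and cytoskeleton 12 were higher. Slc16a1, the lactate transporter MCT1, had 0.19 (SE 0.07), Adamts4, a matrix protease of mature oligodendrocytes, 0.19 (SE 0.07), Gstp1 0.15 (SE 0.07) and Tppp, a tubulin-binding protein, -0.12 (SE 0.05), with edgeR adjusted p values from 0.192 to 0.259.

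Genes of earlier stages of the lineage and oligodendrocyte transcription factors went in both directions, as did those of the other oligodendrocyte lists. Precursor genes were 7 higher and 5 lower with a median log2 fold change of 0.01, and Pdgfra, the receptor that defines precursors and is named here outside the rule, averaged 75.3 ± 3.38 CPM with varenicline and 74.5 ± 5.30 CPM with saline. In committed and newly formed cells 8 of 11 were higher with a median of 0.04. At an unadjusted p under 0.05, 1 was higher and 2 were lower, where 7.26% and 9.63% of all genes were. The zinc transporter gene Tmem163 had the smallest p there and a lower mean (log2 fold change -0.49, SE 0.13, edgeR adjusted p = 0.138), Rras2 had -0.20 (SE 0.09) and Neu4, a sialidase also in the precursor list, 0.20 (SE 0.09). Of the 12 transcription factors 9 were higher with a median of 0.05. Olig2 had -0.29 (SE 0.10, edgeR adjusted p = 0.182), Sox8 0.14 (SE 0.06) and Myrf 0.10 (SE 0.08). Sox10, named as a defining factor outside the rule, had 88.0 ± 5.62 CPM with varenicline and 87.9 ± 14 CPM with saline.

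**Figure D5:**
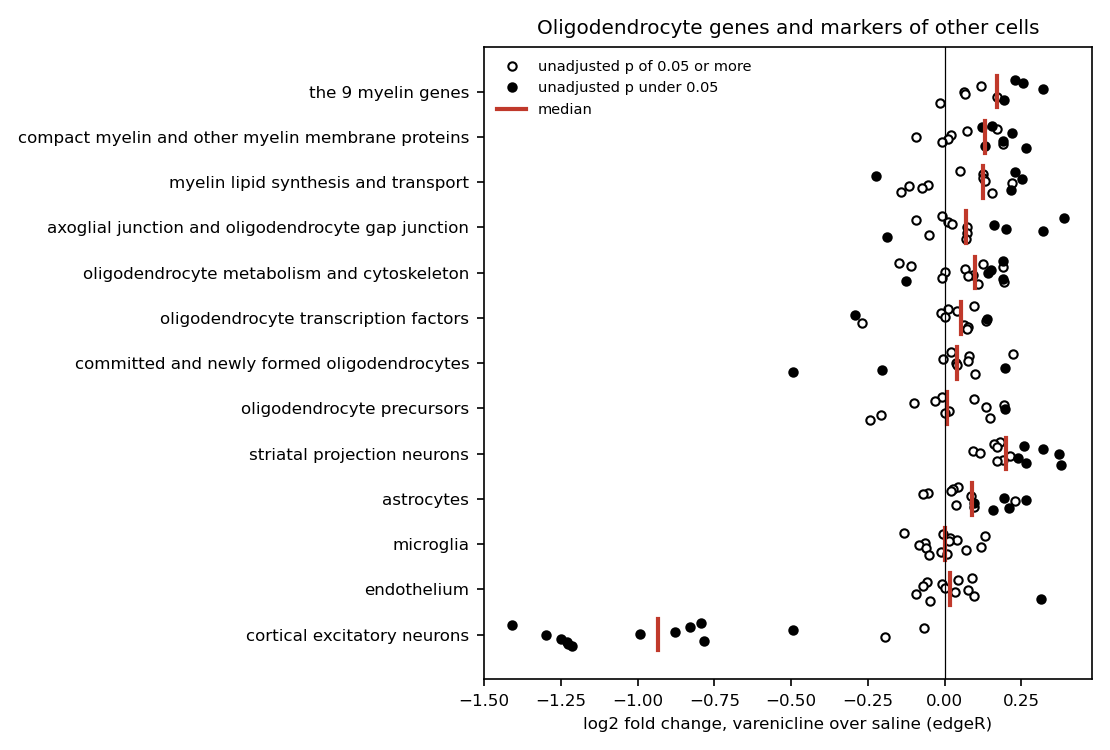
Log2 fold change, varenicline over saline, of each gene in the 9 myelin genes, 7 oligodendrocyte lists and 5 lists of other cells, with filled points for an unadjusted p under 0.05 and a red line at the median. The median is 0.17 for the 9 genes, 0.01 for precursors and -0.93 for cortical excitatory markers.

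Markers of other cells also differed in their means. All 14 striatal projection neuron markers were higher, with a median log2 fold change of 0.20. Of them, 6 were higher at an unadjusted p under 0.05 (42.9%, against 7.26% of all genes). Their sum in varenicline 6, 8670 CPM, was the lowest of the varenicline libraries, as for the members. Tac1, the precursor of substance P, had 0.38 (SE 0.14, edgeR adjusted p = 0.199). Astrocyte markers were 12 of 14 higher with a median of 0.09, 5 of them at an unadjusted p under 0.05 (35.7%, against 7.26% of all genes). They summed to 7000 to 7770 CPM with varenicline and to 6860 to 7270 CPM with saline. The gap junction gene Gjb6 had the largest log2 fold change of these 14, 0.26 (SE 0.09, edgeR adjusted p = 0.184). Septal and pallidal markers were 10 of 11 higher with a median of 0.75, 9 of them at an unadjusted p under 0.05 (81.8%, against 7.26% of all genes), with sums of 75.2 to 159 CPM in varenicline libraries and 65.8 to 90.3 CPM in saline libraries. Microglial markers were 7 higher and 7 lower with a median of 0.0014, and endothelial markers 7 of 12 higher with a median of 0.02. Without varenicline 6 and saline 6 the medians were 0.34 for striatal projection neurons, 0.83 for septal and pallidal, 0.10 for astrocyte and -1.45 for cortical markers. For the oligodendrocyte lists they were 0.18 for membrane proteins, 0.19 for lipid genes, 0.15 for axoglial genes, 0.18 for metabolism, 0.13 for committed cells, 0.09 for transcription factors and 0.02 for precursors. No marker of these lists was at 0 over all libraries, and their part in the myelin values was not tested.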

How the data were processed

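RNA was sequenced as single reads of 150 nt in 12 striatal libraries, 6 per treatment. Per the submitters' processing notes, tools included TopHat2 and featureCounts, Trimmomatic and FastQC, along with Cuffnorm, Cuffdiff and DESeq2 and the build mm10. Tool versions, annotation and strand use: not given in the sources used here. In GENCODE vM21 no exon of another gene overlaps an exon of the 9 members. The authors deposited raw counts per gene, FPKM values, and Cuffnorm values, a signal scaled between libraries.

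Counts were fitted in R 4.3.3 with edgeR 4.0.16 (filterByExpr, TMM scaling, quasi-likelihood test, Benjamini-Hochberg adjustment, threshold 0.05) on treatment alone, after the code had been tested on simulated data. Log2 CPM used a prior count of 2. The members and all 15 other gene lists were chosen with earlier results of these data known, so their shares set against all genes are no independent support. Genes named from a list are up to 4 with the smallest p, a few of which are not reported here, and likeness was ranked by Pearson's r with the members' mean standardised log2 CPM. Alternatives numbered 27, with DESeq2 1.42.0 and limma 3.58.1 among the tools. Log2 FPKM was tested with pseudocounts of 1 and 0.1 for genes of at least 1 FPKM in 6 libraries, and log2 Cuffnorm values with a pseudocount of 1 for genes of at least 10 in 6 libraries. Figures were drawn with matplotlib 3.10.9. Labels name no batch. Over the 66 pairs of libraries the lowest chi-square per degree of freedom was 5.91, so no library was a copy of another.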

Additional observations from a re-analysis of the deposited data

Results flagged for a closer look

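A library far from the other 5 of its group was found in 8 of 24 sets of 6 values, where chance at 1 in 20 gives 1.2, and the sets are not independent because the genes vary together. Each concerned varenicline 6 or saline 6. Varenicline 6 was the lowest of its group for Mbp (12.35 log2 CPM, next 12.55), Mobp (9.47, next 9.74), Cldn11 (7.86, next 8.21) and Hapln2 (5.65, next 5.98), and for the members' share of counts (0.742%, next 0.877%). Saline 6 was the highest of its group for Mbp (12.81 log2 CPM, next 12.48), Mobp (9.98, next 9.56) and the members' share of counts (0.977%, next 0.809%).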

How the results depend on the processing

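Of the 9 genes, 0 were called by edgeR with all libraries. DESeq2 called 2 of the 9, 3 oligodendrocyte list genes and 396 genes in all, and limma-voom with library weights called 6, 23 and 2099. Leaving out 1 library gave 0 to 4 of the 9, 0 to 19 list genes and 0 to 1628 genes, the highest without varenicline 6, and 4 genes without varenicline 2. Chosen after seeing the data, leaving out varenicline 6 and saline 6 gave 7, 28 and 1848, and DESeq2 without varenicline 6 gave 5, 20 and 2158. When the cortical score entered the fit, 9 genes were called, 0 of them members. The sign turned for Mbp (-0.0488), Mag (-0.0388) and Cnp (-0.014) with the cortical score, for Mbp (-0.0745), Mobp (-0.0328), Mag (-0.0312) and Cnp (-0.0071) with cortical and septal scores, and for Mag (-0.0107) with that score in the fit and varenicline 6 left out. Opalin turned to 0.0057 with library totals, 0.0297 with limma-voom, between -0.0706 and 0.0673 when 1 library was left out, and 0.0056 without both libraries. Mog, Cldn11, Hapln2 and Aspa had positive values in all 27 alternatives, with adjusted p up to 1, but with cortical and septal scores Mog was 0.0139 (SE 0.11), and with the cortical score Aspa was 0.0519 (SE 0.11). The cause was not tested. No paired analysis was possible because the sample titles all carry the same replicate number.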

Other observations

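Among genes of peripheral myelin, made by Schwann cells, Prx, which encodes periaxin, averaged 0.533 ± 0.193 CPM with varenicline and 0.915 ± 0.195 CPM with saline (SD, n = 6 each; log2 fold change -0.81, SE 0.28, edgeR adjusted p = 0.185). Pmp2 and Cldn19 had too few counts to be tested. Egr2, a transcription factor of Schwann cells that neurons also switch on with activity, averaged 12.1 ± 6.52 CPM with varenicline and 5.19 ± 1.15 CPM with saline (SD, n = 6 each; log2 fold change 1.20, SE 0.29, edgeR adjusted p = 0.132). It was called by DESeq2 (adjusted p = 0.0211), by edgeR without varenicline 6 (log2 fold change 1.08, adjusted p = 0.0243) and by edgeR with the cortical score in the fit (1.76, adjusted p = 0.0355), and not without saline 6 (1.27, adjusted p = 0.12).

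Markers of the choroid plexus differed widely between libraries of both groups. The 10 genes summed to 471 to 3170 CPM with varenicline and to 459 to 2930 CPM with saline, and varenicline 6 had the lowest sum of its group.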
